A study of Mus musculus with 12 samples.

Results

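The genes described here mark liver progenitor cells and cholangiocytes, the epithelial cells that line bile ducts, together with the keratins of simple epithelia. They are Sox4, Sox9, Krt7, Krt8, Krt18, Krt19, Epcam, Spp1, Cd24a and Prom1, 10 of the 55385 genes listed, and were taken by symbol from the Ensembl identifiers of the files. Of these, 9 passed the filter on low counts and were tested among 15090 genes, and Krt7 did not pass. Expression was measured by RNA sequencing in hepatocytes isolated from 3 mice, and their strain, age and sex are not known from the labels. All cells were plated on collagen in Williams' E medium with 10% serum, 2 mM glutamine, ITS at 5%, P/S at 1% (both as the labels abbreviate them) and 100 nM dexamethasone, and total RNA was taken 48 h after the siRNAs. Each mouse gave 1 library to each of 4 groups: siCon with control siRNA, siHnf4a with siRNA to Hnf4a, siCebpa with siRNA to Cebpa, and the double knockdown (labelled siHnf4a_siCebpa) with both. The 2 targets are transcription factors of the hepatocyte programme, HNF4A of the nuclear receptor family and C/EBPalpha of the leucine zipper family.

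Hepatocytes and cholangiocytes arise from a common embryonic precursor, the hepatoblast. SOX9 and SOX4 are HMG-box transcription factors that act in bile duct formation, under Notch, TGF-beta and YAP signals, and SOX9 is also taken up by hepatocytes near the portal vein and in injury. Keratins pair a type II with a type I chain to form filaments. Hepatocytes are built on the KRT8 and KRT18 pair, whereas KRT7 and KRT19 are added in bile duct cells. EPCAM, CD24 and prominin-1 (CD133, the product of Prom1) are surface proteins used to sort progenitor cells, and Spp1 encodes osteopontin, a secreted ligand of integrins and CD44 made by biliary cells and by some macrophages.

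Estimated counts per library summed to 22453445 to 25008195. Levels are counts-per-million (CPM) after TMM scaling, which compare a gene between libraries, or the authors' transcripts-per-million (TPM), which also allow for length and so compare genes. Hnf4a ranged over 144 to 297 CPM (siCon), 46.4 to 59.2 (siHnf4a), 149 to 293 (siCebpa) and, with both siRNAs, 33.5 to 40.1. Cebpa was at 179 to 211, 204 to 234, 26.1 to 33.7 and 84.5 to 109 CPM in the same order, so each target was lower than in siCon wherever its siRNA was given, and Cebpa less so in the double knockdown. Albumin (Alb), the defining hepatocyte product, was at 4189 to 13907 CPM. With the block Alb was lower in the double knockdown than in siCon (-0.56, edgeR adjusted p = 0.0238) and than in siCebpa (-0.66, adjusted p = 0.0127), and of 8 hepatocyte markers 6 were lower and 1 higher than in siCon (3 and 0 without the block). Its part in the values below was not tested. Of the defining markers of mature bile duct cells, Cftr was at 0 in 11 of 12 libraries and Sctr in 10 of 12, while the tight junction gene Cldn4 was at 244 to 485 CPM.

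In siCon the order of levels by mean TPM was Krt18 (2699 ± 659, SD, n = 3), Krt8 (2043 ± 546), Spp1 (156 ± 98), Sox4 (140 ± 19.2), Sox9 (14.4 ± 3.43), Prom1 (13.7 ± 4.77), Cd24a (13.6 ± 4.86), Krt19 (13.4 ± 8.93), Epcam (0.722 ± 0.59) and Krt7 (0.136 ± 0.066). Krt18 and Krt8 ranked 49 and 62 among 27822 genes above 0 TPM, and Epcam and Krt7 ranked 14138 and 19043. Krt18 exceeded Krt8 in each of the 12 libraries. The ranges of Spp1 and Sox4 overlapped, as did those of Sox9, Prom1, Cd24a and Krt19, so the order by mean within these sets does not exceed the spread. The genes thus spanned the keratin pair at the level of major hepatocyte transcripts and the ductal markers Epcam and Krt7 at means of 0.722 and 0.136 TPM.

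**Figure D1:**
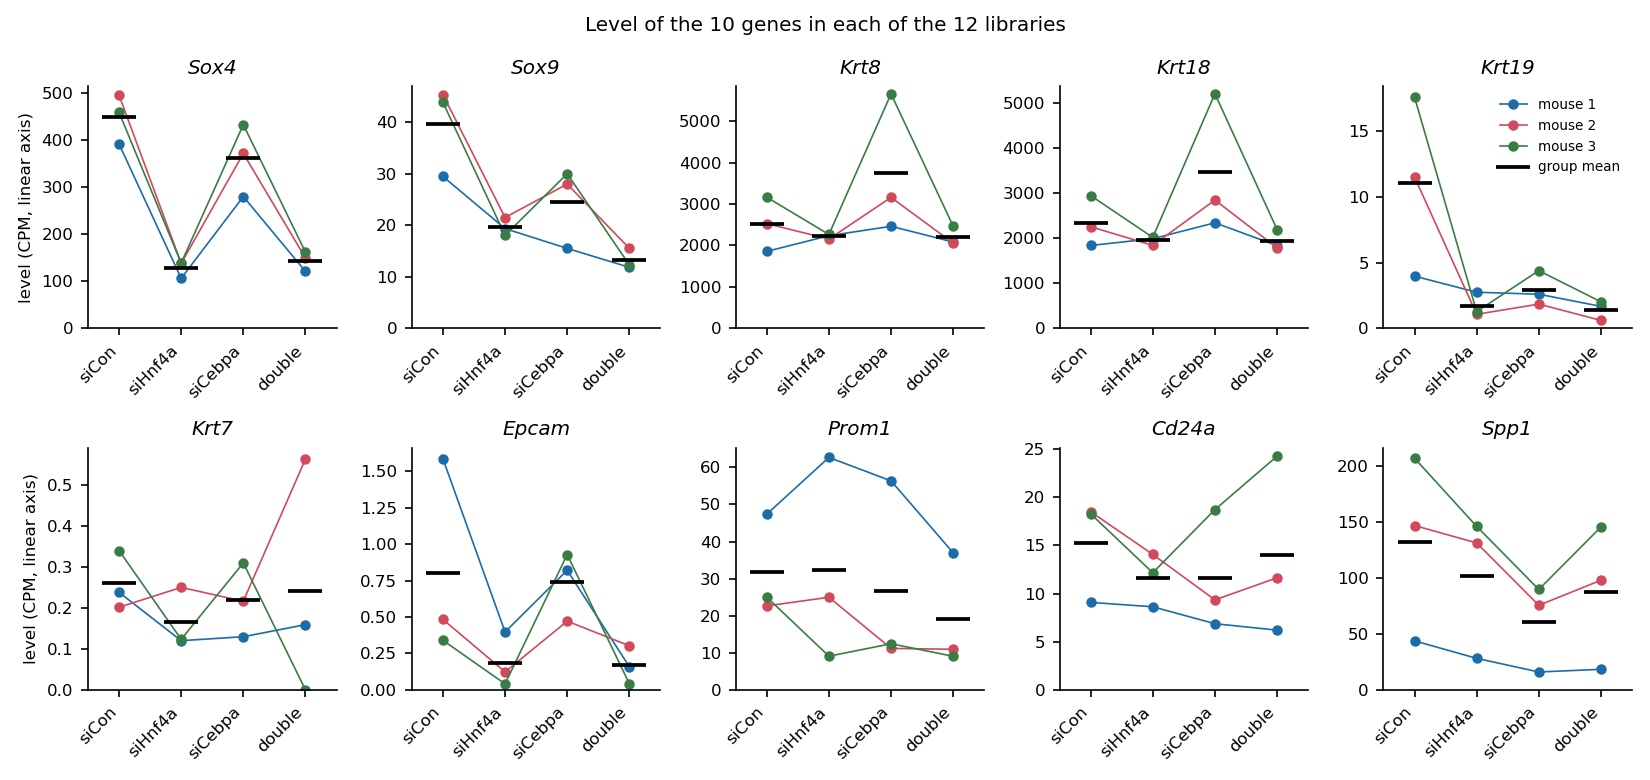
Level of each of the 10 genes in CPM (y axis, linear, from 0) in the 4 siRNA groups (x axis), where points are libraries, lines join the libraries of 1 mouse and black bars are group means. Sox4, Sox9 and Krt19 in siHnf4a and in the double knockdown lie below every siCon library, whereas Spp1 and Prom1 differ more between mice than between groups.

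Against siCon, 3 of the 9 tested genes were lower in siHnf4a (Sox4, Sox9 and Krt19), 0 in siCebpa and 3 in the double knockdown (the same Sox4, Sox9 and Krt19), and none was higher (edgeR quasi-likelihood test, adjusted p under 0.05). Over all 15090 genes, 7.29% were lower with siHnf4a, 1.72% with siCebpa and 7.13% with both siRNAs. The shares higher were 7.24%, 2.94% and 6.9%, and those changed in either direction 14.5%, 4.67% and 14%. The median log2 fold change of the 9 genes was -0.40, -0.31 and -0.74, where that of all tested genes lay between 0.000173 and 0.00125. In siCebpa, 2 of the 9 had an unadjusted p under 0.05, and DESeq2 called 2 lower, Sox9 and Krt19. When the model held a term for each mouse (mouse as a block), which removes the differences that a mouse carries through all its libraries, 5, 4 and 6 of the 9 were lower and none was higher. That model called 15.5%, 8.11% and 15.6% of all genes lower and 14.5%, 8.73% and 13.8% higher, together 30%, 16.8% and 29.5%. These comparisons share the siCon libraries, so they are not independent of each other.

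**Figure D2:**
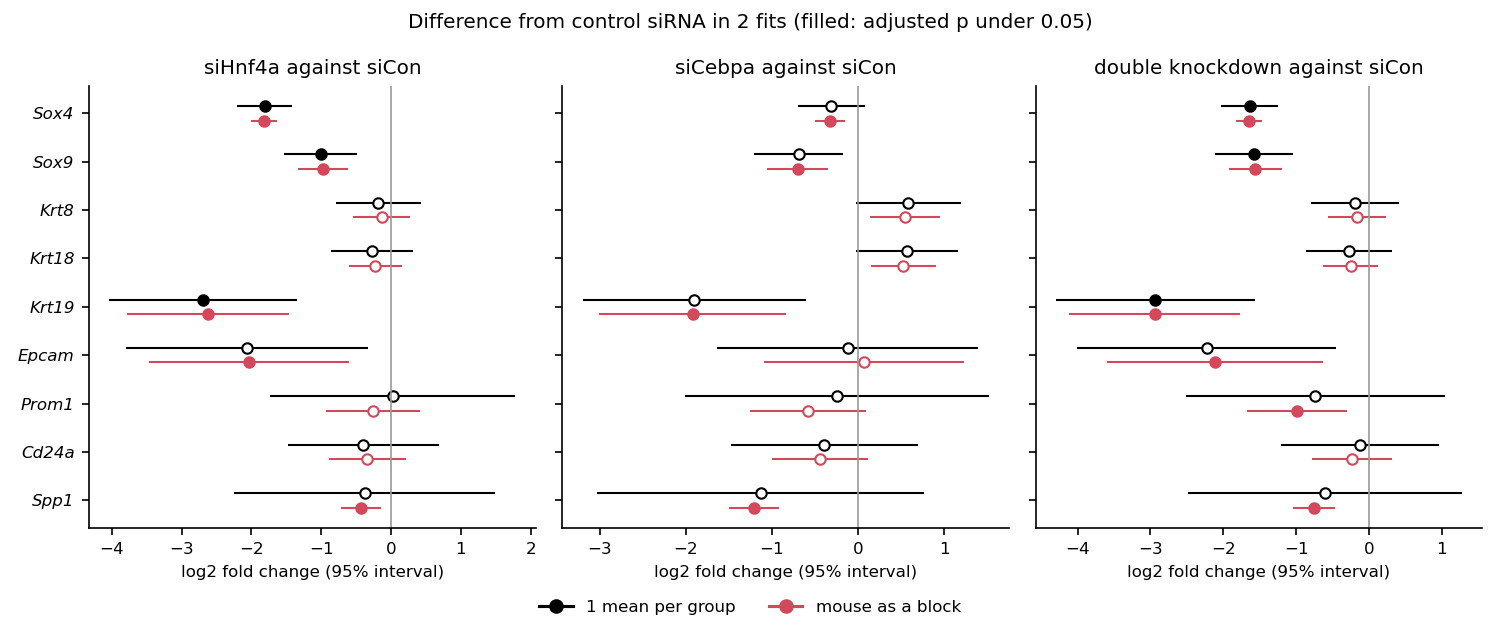
Log2 fold change with its 95% interval (x axes) of the 9 tested genes in each knockdown against siCon, from the model with 1 mean per group (black) and with mouse as a block (red), with filled points where the adjusted p was under 0.05. The intervals of Spp1 and Prom1 shorten most with the block, and Sox4, Sox9 and Krt19 are filled in both models in siHnf4a and in the double knockdown.

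Sox4 (ENSMUSG00000076431.4, a single-exon gene on chromosome 13, 28948919 to 28953713, minus strand, GRCm38) fell wherever Hnf4a was targeted. Its levels in mice 1, 2 and 3 were 392, 496 and 459 CPM in siCon and 106, 138 and 139 CPM in siHnf4a. In siCebpa they were 280, 372 and 433 CPM, and in the double knockdown 121, 150 and 162 CPM. All 6 libraries that received the Hnf4a siRNA thus lay below all 6 that did not. The log2 fold change was -1.81 ± 0.18 (SE) in siHnf4a (adjusted p = 0.00016) and -1.64 ± 0.18 in the double knockdown (adjusted p = 0.000252). In siCebpa it was -0.31 ± 0.18 (95% interval -0.70 to 0.07, adjusted p = 0.354). In the blocked model the value in siCebpa was -0.33 ± 0.08 and passed (edgeR adjusted p = 0.0185), being lower in 3 of 3 mice. Set directly against siCebpa, Sox4 was lower in siHnf4a (-1.502 ± 0.18, adjusted p = 0.000501) and in the double knockdown (-1.33 ± 0.18, adjusted p = 0.00101). The double knockdown did not differ detectably from siHnf4a (0.18 ± 0.18, interval -0.21 to 0.56). Sox4 was higher there than in siHnf4a in 3 of 3 mice, and the blocked model gave 0.18 ± 0.08 (edgeR adjusted p = 0.654). Leaving out single libraries ended none of these 4 calls, but leaving out all 4 libraries of mouse 2, with fewer libraries in the model, gave adjusted p values of 0.0557 for siHnf4a, 0.0642 for the double knockdown, and 0.0783 and 0.103 for the comparisons with siCebpa at fold changes of -1.79, -1.59, -1.52 and -1.32. A long non-coding gene on the plus strand, Gm26735, overlaps the exon of Sox4, and since no source used here gives the strand setting of the counting, reads of both cannot be told apart.

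The region before the Sox4 start is shown because the gene was lower in every library with the Hnf4a siRNA. It covers 250 bases upstream of the start in the RefSeq promoter table (build GRCm38.p6), 5' to 3' on the strand of the gene, with capitals on the match to the motif GGAATG, a core recognised by TEAD factors, 168 bases upstream.
Sox4 (chr13:28953700-28953949, minus strand): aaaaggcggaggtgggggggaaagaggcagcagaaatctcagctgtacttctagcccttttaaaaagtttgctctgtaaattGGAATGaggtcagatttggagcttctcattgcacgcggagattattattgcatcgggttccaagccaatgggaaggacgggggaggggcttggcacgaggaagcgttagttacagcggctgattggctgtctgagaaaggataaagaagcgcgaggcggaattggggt
This motif is present on either strand in 14.7% of 32851 promoter windows of the same length (250 bases before to 50 after the start), so its presence is a description of this sequence.

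Sox9 (ENSMUSG00000000567.5, chromosome 11, 112782224 to 112787760, plus strand) was lower in both groups with the Hnf4a siRNA and, on the TPM scale, far below Sox4. In mice 1, 2 and 3 it was at 29.5, 45.4 and 43.9 CPM in siCon and 19.4, 21.5 and 18.0 CPM in siHnf4a. It was at 15.5, 28.0 and 30.01 CPM in siCebpa and 11.9, 15.5 and 12.3 CPM in the double knockdown. The siHnf4a and double knockdown libraries lay below all siCon libraries, while in siCebpa mouse 3 alone reached above the lowest siCon library, that of mouse 1. The log2 fold change was -1.01 ± 0.24 in siHnf4a (adjusted p = 0.0174) and -1.58 ± 0.24 in the double knockdown (adjusted p = 0.00186). In siCebpa it was -0.69 ± 0.24 (adjusted p = 0.127), and -0.70 ± 0.16 in the model blocked by mouse (edgeR adjusted p = 0.014), lower in 3 of 3 mice. The siHnf4a call was lost without siCon replicate 2 (-0.90, adjusted p = 0.0682), siCon replicate 3 (-0.93, 0.0654) or siHnf4a replicate 3 (-0.95, 0.0582), and without the libraries of mouse 2 (-0.97, 0.257) or mouse 3 (-0.88, 0.166). The double knockdown call was lost without those of mouse 2 (-1.60, 0.0961) or mouse 3 (-1.46, 0.0515).

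Unlike Sox4, Sox9 was also lower in the double knockdown than in siHnf4a in each mouse, without overlap of the groups, by 0.71, 0.47 and 0.55 log2 units. This difference had a fold change of -0.57 ± 0.24 and an unadjusted p of 0.037, and did not pass the adjustment over all genes (edgeR adjusted p = 1.00, and in the blocked model 0.396). Over all genes, 0.00663% passed in this comparison, and of the 9 tested genes 0 passed with edgeR or DESeq2, with 1 at an unadjusted p under 0.05. Hnf4a itself was at 33.5 to 40.1 CPM in the double knockdown and at 46.4 to 59.2 CPM in siHnf4a. The part of this in the Sox9 difference was not tested. Against siCebpa the double knockdown was lower for Sox4 and Sox9, 2 of the 9 genes, where 6.47% of all genes were lower and 6.51% higher (edgeR), which is 976 and 983 genes, against 371 and 1300 with limma on log2(TPM + 1). The Sox9 value was -0.89 ± 0.24 (adjusted p = 0.0346), lost in 10 of 17 alternatives. These included leaving out siCebpa replicate 2 (-0.77, 0.108) or 3 (-0.72, 0.124), double knockdown replicate 1 (-0.80, 0.096), 2 (-0.99, 0.0578) or 3 (-0.82, 0.107), or the libraries of mouse 2 (-0.90, 0.279) or mouse 3 (-0.67, 0.334). siHnf4a and siCebpa did not differ detectably in Sox9 (-0.32 ± 0.24, interval -0.84 to 0.20). The ratio of Sox4 to Sox9 in TPM was 9.91 ± 1.3 (SD, n = 3) for siCon, 5.6 ± 0.949 for siHnf4a, 13.1 ± 2.14 for siCebpa and 9.43 ± 1.61 for both siRNAs. Every siHnf4a library (at most 6.59) had a lower ratio than every siCon library (at least 8.97), and this difference was not tested.

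The keratin pair of hepatocytes was at high levels in all groups. Krt8 (ENSMUSG00000049382.10, chromosome 15, 101996698 to 102004482, minus strand), the type II chain, was at 1858, 2526 and 3163 CPM in mice 1, 2 and 3 of siCon and 2235, 2155 and 2265 CPM in siHnf4a. It was at 2463, 3159 and 5657 CPM in siCebpa and 2083, 2058 and 2464 CPM in the double knockdown. Krt18 (ENSMUSG00000023043.7, chromosome 15, 102028180 to 102032027, plus strand), the type I chain, was at 1839, 2255 and 2945 CPM in siCon and 1989, 1841 and 2018 CPM in siHnf4a. It was at 2342, 2847 and 5205 CPM in siCebpa and 1836, 1786 and 2193 CPM in the double knockdown. Both genes were thus higher in siCebpa than in siCon in 3 of 3 mice, most in mouse 3, and within the range of siCon with the Hnf4a siRNA, apart from a Krt18 value in 2 of those 6 libraries just below it. A non-coding gene that overlaps Krt8 on the other strand, Gm36026, reached at most 1.25 CPM, and a processed pseudogene, Krt8-ps, had a mean of 0.274 CPM.

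No difference of this pair from siCon passed the test. In siCebpa Krt8 had a log2 fold change of 0.58 ± 0.28 (interval -0.03 to 1.19, adjusted p = 0.271) and Krt18 one of 0.56 ± 0.27 (-0.03 to 1.15, adjusted p = 0.27). In the blocked model these were 0.54 and 0.52 (edgeR adjusted p = 0.0652 and 0.0597), and without siCebpa replicate 3 they were 0.16 and 0.15. In siHnf4a the values were -0.18 (interval -0.79 to 0.43) for Krt8 and -0.27 (-0.86 to 0.32) for Krt18, and in the double knockdown -0.19 (-0.80 to 0.42) and -0.28 (-0.86 to 0.31). Set against siCebpa, the double knockdown was at -0.77 ± 0.28 for Krt8 (adjusted p = 0.0952) and -0.84 ± 0.27 for Krt18 (adjusted p = 0.0646). In the blocked model both passed, at -0.71 (edgeR adjusted p = 0.0166) and -0.78 (adjusted p = 0.00762). siHnf4a against siCebpa gave -0.76 ± 0.28 and -0.83 ± 0.27 (adjusted p = 0.0873 and 0.059), which also passed with the block (-0.68 and -0.75, adjusted p = 0.0175 and 0.00776). DESeq2 called both chains in both comparisons. Without siCebpa replicate 1 and without the block, both chains passed in these comparisons too (adjusted p from 0.0175 to 0.0272), as they did without the libraries of mouse 1 (0.0347 to 0.0441). In each of these comparisons only 4 of 17 alternatives called Krt8 and 5 of 17 called Krt18. For the double knockdown the alternatives ran from -1.002 to -0.35 (Krt8) and from -1.06 to -0.42 (Krt18). For siHnf4a against siCebpa they ran from -0.996 to -0.34 and from -1.06 to -0.41. In siHnf4a against siCebpa, Sox4 alone of the 9 genes was called in the model without the block, where 8.67% of all genes were lower and 7.51% higher in siHnf4a (472 lower and 1596 higher with limma on log2(TPM + 1), against 1309 and 1133), and with the block 4 were lower and 1 higher, where 16.3% and 14.9% were.

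The 2 chains kept a nearly fixed proportion. The ratio of Krt18 to Krt8 in TPM lay between 1.21 and 1.40 over the 12 libraries (mean 1.28, SD 0.053), while Krt8 itself varied 3.05-fold and Krt18 2.91-fold. Group means of the ratio were 1.33 ± 0.0704 for siCon, 1.25 ± 0.0298 for siHnf4a, 1.31 ± 0.0351 for siCebpa and 1.25 ± 0.0157 for both siRNAs (SD, n = 3). Together the pair made up 99.2% to 99.7% of all keratin TPM in each library.

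**Figure D3:**
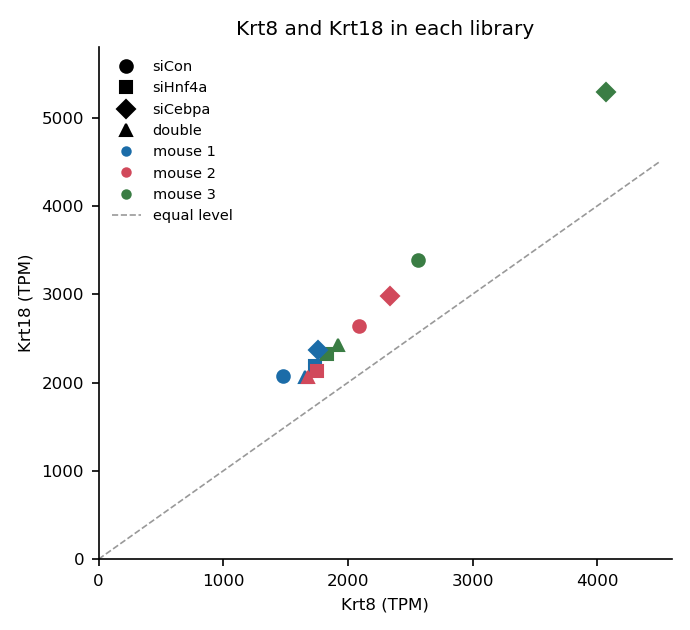
Krt18 against Krt8 in TPM (both axes linear) in the 12 libraries, with marker shape for the siRNA group and colour for the mouse. All points lie above the dashed line of equal level, along 1 direction from the mouse 1 siCon library to the mouse 3 siCebpa library.

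These paired genes are neighbours on opposite strands, and the regions before their RefSeq starts are shown because the transcripts varied together. In Krt8 capitals mark GTGGGAA, the core bound by RBPJ, the DNA-binding factor of Notch signalling, 135 bases upstream of that start. The match lies inside the annotated Krt8 gene (101996698 to 102004482), as does part of the window. The last bases of the Krt18 window also lie inside the annotated Krt18 gene (from 102028180). Which start the transcripts used was not measured here. Krt18 held no match to any motif searched.
Krt8 (chr15:102004343-102004592, minus strand): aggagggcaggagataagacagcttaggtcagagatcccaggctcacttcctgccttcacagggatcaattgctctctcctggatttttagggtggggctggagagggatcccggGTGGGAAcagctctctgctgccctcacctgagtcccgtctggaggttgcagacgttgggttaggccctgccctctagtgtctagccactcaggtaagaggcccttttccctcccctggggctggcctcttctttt
Krt18 (chr15:102027966-102028215, plus strand): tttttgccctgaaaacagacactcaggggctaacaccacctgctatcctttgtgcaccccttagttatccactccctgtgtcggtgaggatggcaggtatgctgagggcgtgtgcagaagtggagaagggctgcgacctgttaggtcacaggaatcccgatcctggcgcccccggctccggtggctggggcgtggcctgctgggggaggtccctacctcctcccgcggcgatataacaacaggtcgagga
GTGGGAA is found in 6.38% of all promoter windows. The HNF4 core CAAAGTC, found in 4.44%, was in none of the 9 promoters listed for 7 of the genes (Sox4, Krt7, Krt8, Krt18, Epcam, and 2 each for Spp1 and Prom1), which says only that these letters are not in these windows. Motifs were searched on both strands and no match overlapped another.

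Krt19 (ENSMUSG00000020911.14, chromosome 11, 100140810 to 100148665, minus strand), the type I keratin of bile ducts, was at low level and fell in both groups with the Hnf4a siRNA. In mice 1, 2 and 3 it was at 3.97, 11.5 and 17.6 CPM in siCon and 2.74, 1.07 and 1.28 CPM in siHnf4a. It was at 2.59, 1.84 and 4.38 CPM in siCebpa and 1.67, 0.606 and 2.02 CPM in the double knockdown. Only mouse 3 of siCebpa exceeded the lowest siCon library, that of mouse 1. The log2 fold change was -2.69 ± 0.61 in siHnf4a (adjusted p = 0.0145) and -2.94 ± 0.62 in the double knockdown (adjusted p = 0.0104). It was -1.90 ± 0.59 in siCebpa (adjusted p = 0.0965), and -1.92 ± 0.49 in the model blocked by mouse (edgeR adjusted p = 0.0233), and without siCon replicate 1 or all libraries of mouse 1 it also passed (-2.30 and -2.22, adjusted p = 0.0371 and 0.046). Within mice the fall in siHnf4a was uneven, with log2 ratios of -0.53, -3.43 and -3.78 in mice 1, 2 and 3.

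The siHnf4a call of Krt19 was lost without siCon replicate 3 (-2.18, adjusted p = 0.0586), siHnf4a replicate 2 (-2.44, 0.0691) or siHnf4a replicate 3 (-2.52, 0.0578), and without the libraries of mouse 2 (-2.41, 0.229) or mouse 3 (-2.02, 0.16). The double knockdown call was lost without those of mouse 2 (-2.54, 0.199) or mouse 3 (-2.76, 0.0928). Direct comparisons between the knockdowns did not pass for Krt19 (siHnf4a against siCebpa -0.79 ± 0.60, double knockdown against siHnf4a -0.24 ± 0.61). Relative to Krt18 in TPM, Krt19 stood at 0.00461 ± 0.00233 (SD, n = 3) in siCon and 0.00092 ± 0.000414, 0.000884 ± 0.000188 and 0.000805 ± 0.000451 in siHnf4a, siCebpa and the double knockdown. Krt7 (ENSMUSG00000023039.17, chromosome 15, 101411043 to 101430313, plus strand), its type II partner in bile ducts, had 0 to 13.0 estimated counts per library, which is 0 to 0.563 CPM. Its single library at 0 was mouse 3 of the double knockdown, where 3 counts would be 0.128 CPM. Krt7 was not tested with the filter on low counts, and with no filter edgeR called it in no comparison. At this depth a difference between groups could be missed. In bulk RNA, fewer biliary or progenitor cells in a culture and less RNA per cell cannot be told apart for Krt19 or for any other gene described here.

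Among the surface markers, Epcam (ENSMUSG00000045394.9, chromosome 17, 87635979 to 87651129, plus strand), an epithelial adhesion protein, was counted 40, 12 and 8 times in mice 1, 2 and 3 of siCon and 10, 3 and 1 times in siHnf4a. It was counted 19, 11 and 21 times in siCebpa and 4, 7 and 1 times in the double knockdown. The libraries with the Hnf4a siRNA were lower than siCon in 3 of 3 mice. As groups, siHnf4a and siCebpa each overlapped siCon, and the double knockdown did not. The log2 fold changes were -2.07 ± 0.79 in siHnf4a and -2.23 ± 0.81 in the double knockdown, which did not pass without the block (adjusted p = 0.108 and 0.0937) and passed with it (-2.03 and -2.11, edgeR adjusted p = 0.0366 and 0.0365). In siCebpa the value was -0.12 ± 0.69 (interval -1.64 to 1.39). With mouse as a block siHnf4a was also below siCebpa (-2.10, adjusted p = 0.0337), and so was the double knockdown (-2.18, adjusted p = 0.0359). These calls rest on 1 to 40 counts per library.

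Prom1 (ENSMUSG00000029086.15, chromosome 5, 43993620 to 44102032, minus strand), a membrane protein of plasma membrane protrusions, was at 47.4, 22.6 and 24.9996 CPM in siCon and 62.7, 24.97 and 9.09 CPM in siHnf4a. It was at 56.4, 11.2 and 12.4 CPM in siCebpa and 37.0, 10.9 and 9.06 CPM in the double knockdown. Mouse 1 was highest in each of the 4 groups, and the groups overlapped. The double knockdown was lower than siCon in 3 of 3 mice, at -0.74 ± 0.81 (adjusted p = 0.6) without the block and -0.99 ± 0.31 with it (edgeR adjusted p = 0.0352). The single knockdowns went both ways among the mice, with fold changes of 0.03 (interval -1.73 to 1.78) in siHnf4a and -0.25 (-2.01 to 1.51) in siCebpa. With the block these were -0.26 (-0.93 to 0.42) and -0.58 (-1.26 to 0.10), and neither passed (edgeR adjusted p = 0.569 and 0.22).

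Cd24a (ENSMUSG00000047139.9, chromosome 10, 43578284 to 43584265, plus strand), which encodes a glycosylated anchor protein of progenitor cells and of several blood cells, was at 9.09, 18.5 and 18.3 CPM in siCon and 8.63, 14.1 and 12.2 CPM in siHnf4a. It was at 6.87, 9.35 and 18.7 CPM in siCebpa and 6.21, 11.6 and 24.3 CPM in the double knockdown. It passed in no comparison, with or without the block. Mouse 1 was lowest in each group, and the fold changes against siCon were -0.40, -0.39 and -0.12 with intervals from -1.48 to 0.96. Of blood cells that carry this marker, the summed level of 6 neutrophil markers was at most 0.796 CPM and that of 4 B cell markers at most 0.255 CPM in any library.

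Spp1 (ENSMUSG00000029304.14, chromosome 5, 104435118 to 104441050, plus strand) differed between the mice more than any other of the 9 tested genes. In mice 1, 2 and 3 it was at 43.8, 147 and 207 CPM in siCon and 28.2, 131 and 146 CPM in siHnf4a. It was at 15.99, 75.6 and 89.8 CPM in siCebpa and 18.4, 98.0 and 146 CPM in the double knockdown. Within every mouse siCon was highest and siCebpa lowest, while the groups overlapped because mouse 1 was far below the others throughout. Without the block no comparison passed, with fold changes of -0.38 ± 0.85 for siHnf4a, -1.13 ± 0.86 for siCebpa and -0.60 ± 0.85 for both siRNAs (edgeR adjusted p = 0.813, 0.514 and 0.695). With mouse as a block they were -0.43 ± 0.13, -1.21 ± 0.13 and -0.76 ± 0.13, and all passed (adjusted p = 0.0271, 0.000387 and 0.0016). Without the 4 libraries of mouse 1, the siCebpa value was -1.10 ± 0.22 and passed with no block (adjusted p = 0.0323).

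With the block Spp1 was higher in siHnf4a than in siCebpa (0.77 ± 0.13, edgeR adjusted p = 0.00159) and higher in the double knockdown than in siCebpa (0.45 ± 0.13, adjusted p = 0.029). It was the gene counted as higher in siHnf4a against siCebpa above, and in the double knockdown against siCebpa the block called 5 of the 9 genes lower and Spp1 higher, where 14.3% and 13% of all genes were. The double knockdown against siHnf4a gave -0.33 ± 0.13 with the block (adjusted p = 0.599).

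The Spp1 promoter table holds 2 starts. The second is shown because it alone among the 9 promoters carries a match to TTGCNNAA, the C/EBP motif searched (N is any base). The match is in capitals, 156 bases upstream.
Spp1 (chr5:104435942-104436191, plus strand): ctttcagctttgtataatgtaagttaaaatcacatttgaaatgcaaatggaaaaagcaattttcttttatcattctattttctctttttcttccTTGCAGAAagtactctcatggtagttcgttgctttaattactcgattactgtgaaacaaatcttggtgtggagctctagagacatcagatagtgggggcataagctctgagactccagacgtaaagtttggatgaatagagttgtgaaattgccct
This motif is found in 10.8% of all promoter windows. The region lies inside the annotated Spp1 gene, downstream of its first exon start, and which start the transcripts used was not measured here.

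The share of spread taken by siRNA group and by mouse separated the genes. As a share of the sum of squares of log2 CPM, siRNA group took 94.3% for Sox4, 80.7% for Sox9, 71.7% for Krt19 and 60.9% for Epcam. For Krt18 and Krt8 it took 52.6% and 45.9%. Mouse took 85.2% for Spp1, 74.9% for Prom1 and 71.3% for Cd24a, against 5.06% for Sox4. The median over all tested genes was 45.7% for group and 22.4% for mouse.

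**Figure D4:**
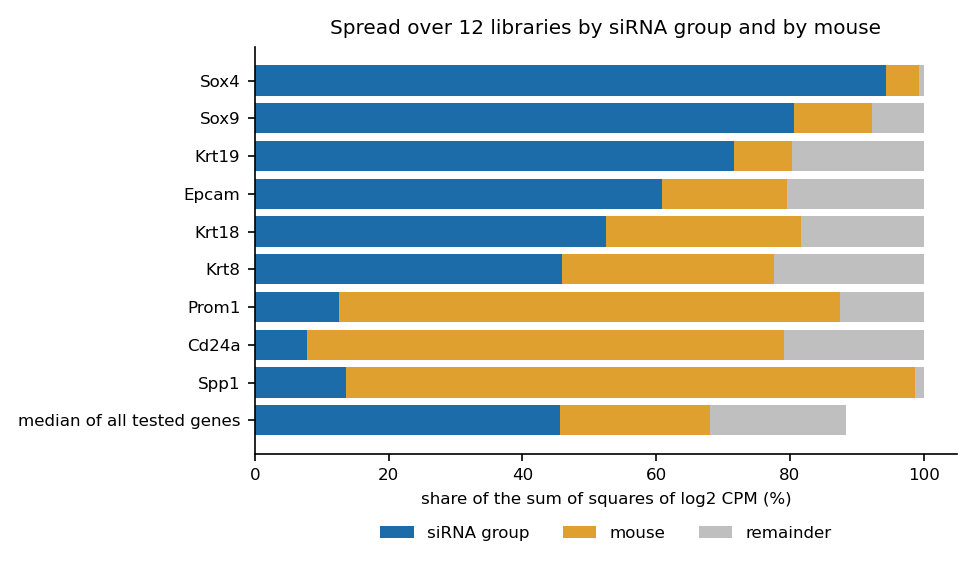
Share of the sum of squares of log2 CPM over 12 libraries (x axis, percent) taken by siRNA group (blue), mouse (yellow) and the remainder (grey) for the 9 tested genes, with medians over all tested genes in the last row, taken separately and so not adding to the full length. Sox4, Sox9 and Krt19 are mostly blue, and Spp1, Prom1 and Cd24a mostly yellow.

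Markers of other cells also differed between the mice. The summed level of 12 Kupffer cell and macrophage markers was 83.5 to 262 CPM for siCon, 96.0 to 422 for siHnf4a, 59.1 to 370 for siCebpa and 93.1 to 355 for both siRNAs, with mouse 1 highest in each group, where Spp1 was lowest. Cd68 made up 49.97 to 415 CPM of this. The other 11 genes summed to 2.90 to 20.7 CPM with mouse 2 lowest in each group. In mice 1, 2 and 3 this sum was 14.2, 6.08 and 20.7 CPM in siCon and lower in every mouse of each knockdown, at 7.61, 2.90 and 10.2 CPM in siHnf4a, 4.43, 3.99 and 9.17 CPM in siCebpa and 7.35, 3.47 and 5.11 CPM with both siRNAs. Of the defining ones Clec4f reached at most 1.57 CPM, Vsig4 1.70 CPM and Timd4 0.085 CPM. Of the 10 macrophage markers tested, 0 changed in any knockdown against siCon with edgeR or DESeq2, with 0, 1 and 1 at an unadjusted p under 0.05 in siHnf4a, siCebpa and the double knockdown and medians of -1.002, -1.21 and -1.24. In the blocked model, 3, 3 and 5 were called, all lower. Summed levels of 8 stellate and mesenchymal markers were 116 to 141 CPM for siCon, 73.7 to 103 for siHnf4a, 70.6 to 132 for siCebpa and 68.7 to 108 for both siRNAs, lowest in mouse 1 of every group. For 7 endothelial markers they were 62.6 to 92.5, 61.8 to 78.7, 47.2 to 72.5 and 48.3 to 64.5 CPM in the same order. For 3 mesothelial markers, a cell type that also makes keratins 8, 18 and 19, they were 0.739 to 1.40, 0.579 to 0.896, 0.326 to 0.6005 and 0.239 to 0.903 CPM. The part of these cells in the values of Sox4, Sox9, Krt19, Epcam and Spp1 was not tested.

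Across the 12 libraries, the tested genes of at least 10 CPM whose log2 level was most like that of Sox4 were Cited2, a transcriptional co-regulator, Exoc8, a subunit of the exocyst, and Mcm7, of the replicative helicase (Pearson r = 0.993, 0.989 and 0.985 among 9048 genes compared). For Sox9 they were Kctd11, Cish and Asxl1 (0.957, 0.944 and 0.942), and for Krt19 Rgl2, Slc9a3r2 and Rap1gap (0.942, 0.939 and 0.937). The 12 points of each correlation share the 4 groups and the 3 mice, so these values describe likeness of pattern only.

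Related genes were read from lists chosen with results of these data known. Of 21 tested biliary genes other than those above, 3 were lower and 1 higher in siHnf4a, 1 lower in siCebpa and 3 lower in the double knockdown. With mouse as a block, 8, 3 and 8 were lower and 3, 0 and 2 higher. Bicc1, an RNA-binding protein of cystic disease, fell from 75.7 CPM in siCon by a log2 fold change of -2.42 ± 0.50 in siHnf4a and -2.60 ± 0.51 in the double knockdown (adjusted p = 0.00985 and 0.00694). Pkhd1, the ciliary protein fibrocystin, fell in these groups (-1.35 ± 0.19 and -1.49 ± 0.19). Of 16 progenitor and fetal liver genes, 2 were lower and 0 higher in each knockdown (4, 5 and 4 lower and 1, 0 and 1 higher with the block), among them the forkhead factor Foxa3 (-0.68, -0.84 and -0.97 in order) and, in siHnf4a and the double knockdown, the homeobox factor Hhex (-0.63 and -0.87).

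Pathways known to govern Sox9 and Sox4 in the duct were counted beside the shares over all tested genes given above (7.29%, 1.72% and 7.13% lower), and no difference between lists was tested. Of 28 genes of YAP and TEAD, the co-activator and DNA-binding factors of Hippo signalling, 13 were lower and 1 higher in siHnf4a, 2 lower in siCebpa, and 11 lower and 1 higher in the double knockdown. Their medians were -0.55, -0.10 and -0.52, and with mouse as a block 18, 7 and 19 were lower and 3, 1 and 2 higher. In siHnf4a falls were seen in Ccn2, a secreted matricellular target (log2 fold change -2.64 ± 0.46), Tead2 (-2.43 ± 0.17), Amotl2, an angiomotin that binds YAP (-1.81 ± 0.38), and the stress gene Gadd45b (-1.40 ± 0.24; adjusted p = 0.0041, 2.55e-05, 0.0108 and 0.00333). Tead2 also fell in siCebpa (-0.82 ± 0.16). Of 27 Notch genes, 2 were lower and 1 higher in siHnf4a, 1 lower and 1 higher in siCebpa, and 1 lower and 2 higher in the double knockdown (6, 1 and 7 lower and 3, 1 and 2 higher with the block), which is near the share over all genes in siHnf4a. Rbpj fell in all (-0.84, -0.50 and -0.79 in the same order), though in siCebpa the call was lost without any 1 of the 6 libraries compared, and Maml1, its co-activator, in siHnf4a (-0.50). Of 20 TGF-beta genes, 5 were lower in siHnf4a, 3 in the double knockdown and 0 in siCebpa (11, 9 and 6 lower and 1, 2 and 0 higher in that order with the block). In siCebpa 3 of them had an unadjusted p under 0.05 and DESeq2 called 1. The receptor Tgfbr1 (-0.74 and -0.69) and the repressors Skil (-0.75 and -0.78) and Ski (-0.66 and -0.51) fell in siHnf4a and the double knockdown.

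**Figure D5:**
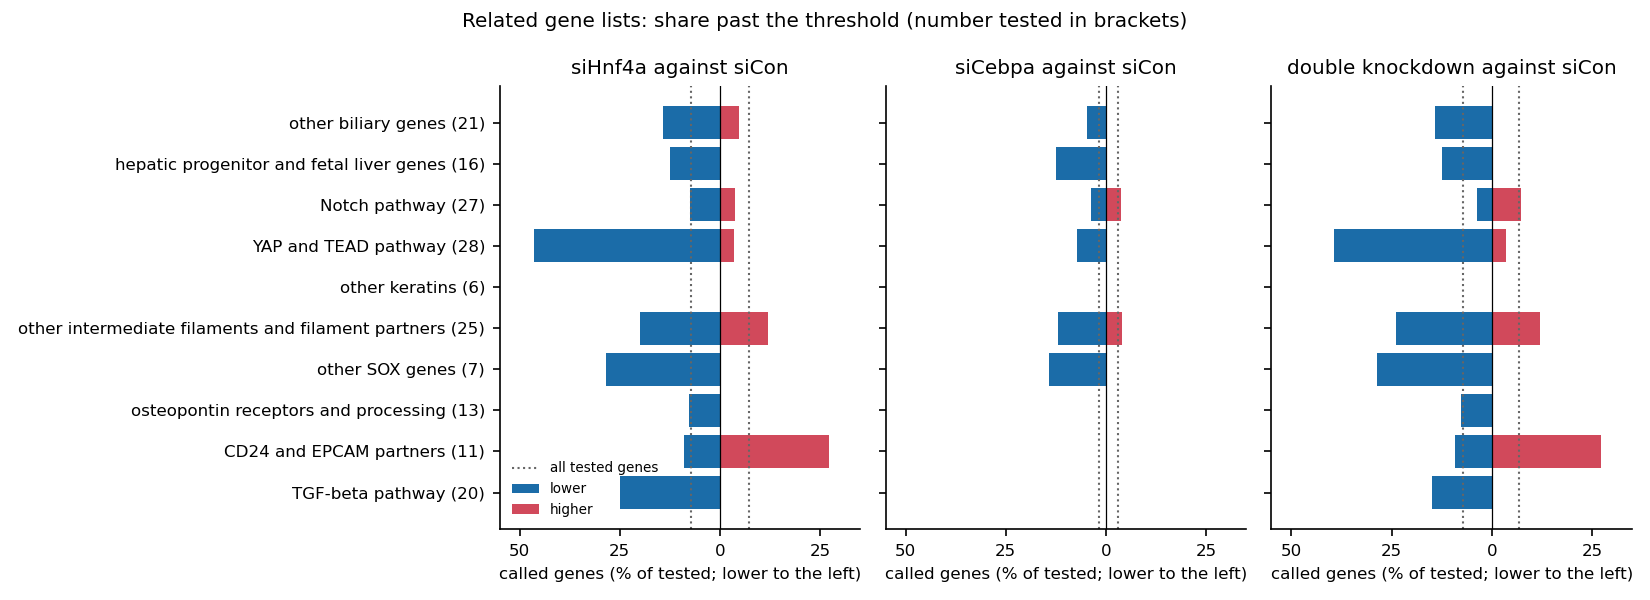
Share of tested genes past the threshold (x axes, percent, lower to the left and higher to the right of 0) in each list (y axis, number tested in brackets) for each knockdown against siCon, with dotted lines at the share over all tested genes. In siHnf4a and in the double knockdown the YAP and TEAD list has the longest bars, with 13 and 11 of 28 genes lower. In siCebpa the longest bar is that of the other SOX genes, with 1 of 7 lower.

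Of 24 other keratins only 6 passed the filter and none was called in any knockdown against siCon with edgeR, or DESeq2, where 2 in each had an unadjusted p under 0.05 and mouse as a block called 2 lower in siHnf4a, 1 higher in siCebpa and 3 lower in the double knockdown. Krt23, the most abundant, was at 8.68 CPM in siCon, with fold changes of -1.14 ± 0.52 in siHnf4a (adjusted p = 0.171) and -1.22 ± 0.52 in the double knockdown (adjusted p = 0.149), and both passed with the block (-1.01 and -1.08, edgeR adjusted p = 0.0348 and 0.0271). Of 25 other filament proteins and partners, 5 were lower and 3 higher in siHnf4a, 3 lower and 1 higher in siCebpa, and 6 lower and 3 higher in the double knockdown (8, 5 and 10 lower and 6, 3 and 4 higher with the block). Vim, the mesenchymal filament vimentin, fell in siCebpa (-1.71 ± 0.34, from 801 CPM in siCon), and Jup, the desmosomal plakoglobin, fell in siHnf4a (-1.27 ± 0.36). Hspb1, a chaperone of filaments, rose in siCebpa (0.59 ± 0.13) and in the double knockdown (0.77 ± 0.13). Of 7 other SOX genes, Sox12 was lower in each knockdown (-1.35, -1.49 and -1.45) at 1.40 CPM in siCon, and Sox6 in siHnf4a and the double knockdown (-0.57 and -0.69), and with the block 3 were lower in each.

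Among 13 genes that receive or process osteopontin, the integrin chain Itga5 alone was lower, in siHnf4a (-0.74 ± 0.11) and the double knockdown (-0.67 ± 0.11), and 0 passed in siCebpa with edgeR (2 at an unadjusted p under 0.05, 1 with DESeq2), where Spp1 had its lowest values. In the blocked model, 4, 3 and 5 were lower and 2, 1 and 2 higher. Of 11 partners of EPCAM and CD24, 3 were higher and 1 lower both in siHnf4a and in the double knockdown, and 0 in siCebpa with edgeR, at an unadjusted p under 0.05 or with DESeq2. The tight junction protein Cldn1 rose by 1.69 ± 0.46 and 1.81 ± 0.46, the tetraspanin Cd9 by 1.20 ± 0.19 and 1.29 ± 0.19 and the sheddase Adam17 by 0.69 ± 0.18 and 0.65 ± 0.18, while St14, a protease that cleaves EPCAM, fell (-1.13 ± 0.24 and -0.93 ± 0.24). Of 64 calls of list genes that the naming rule takes, 31 were kept whichever of the 6 libraries compared was left out. Leaving out siCon replicate 2 ended 31 calls and siCon replicate 3 ended 29, against 4 to 12 for each other library. The calls of Bicc1, Pkhd1, Itga5 and Cd9 and those in siHnf4a of the 4 YAP and TEAD genes, Rbpj, Tgfbr1, Skil, Ski and St14 were among the 31 kept. Of the 6 libraries left out in turn, 5 ended the call of Adam17 in both groups and 3 to 5 each call of Cldn1, Sox12 and Sox6, and in siHnf4a 4 ended that of Foxa3, 5 that of Hhex and 4 that of Jup. In siCebpa 3 ended those of Vim and Tead2 and 4 those of Foxa3 and Hspb1, and in the double knockdown 4 that of St14.

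The interaction, which asks whether the double knockdown differs from the sum of the single ones on the log2 scale, passed for 0 of the 9 genes without the block, where 0.0861% of all genes passed (0.053% above and 0.0331% below 0), with 0 at an unadjusted p under 0.05 and 0 with DESeq2. In the blocked model 2 passed, Sox4 and Spp1, both above 0, where 3.82% of all genes passed (1.99% above and 1.83% below 0).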

How the data were processed

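RNA sequencing of 12 libraries was analysed: 4 siRNA groups of 3, with libraries of the same number taken from 1 mouse, as the series' design text says. The authors deposited, for each library, expected counts per gene, not normalised and partly fractional, and TPM. Trim Galore 0.6.4, kallisto 0.4.6 and the build GRCm38.p6 are named, without roles, in the submitters' processing notes, and no source used here gives the annotation, strand setting or filter. Of 55385 Ensembl identifiers 55144 were matched to symbols of GENCODE M21 (GRCm38), which also gave positions, and the remaining 241 held 0.00349% of counts.

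Counts were rounded and fitted with edgeR 4.0.16 in R 4.3.3: filterByExpr, TMM scaling, quasi-likelihood fits of 12 libraries in which each group had its own mean, two-sided contrasts, and Benjamini-Hochberg adjustment over 15090 genes with a threshold of 0.05. Values after ± are SE for fold changes and SD for levels. Same-mouse libraries come from the same animal, and their residuals correlated at r from 0.156 to 0.684 over 18 pairs, with 12 of 12 libraries correlating best with their own mouse. Alternatives were mouse as a block, DESeq2 1.42.0, RLE size factors, no or a stricter filter (1 CPM in 3 libraries), only the groups compared, limma-trend (limma 3.58.1) on log2(TPM + 1) or log2(TPM + 0.1), leaving out each library and, added after the levels of Spp1 and Prom1 were seen, each mouse. Intervals of fold changes come from the quasi-likelihood fits and so include the spread between libraries. Floors on single counts cover counting error only.

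The 10 genes and all lists were chosen with earlier results of these data known. Named genes are these 10, Hnf4a, Cebpa and Alb, up to 4 called genes per list and knockdown with the largest change (or the most abundant where none passed) and, per called member, the 3 genes of at least 10 CPM with the highest r. Not all that the rule takes are printed. The macrophage sum without Cd68, and Cldn4 and other single cell type markers, were read after their values were seen. Promoters came from the RefSeq table, which holds 7 of the 10 genes; Sox9, Krt19 and Cd24a are not in it. Further steps used Python 3.11.15, pandas 2.3.3, numpy 2.4.6 and matplotlib 3.10.9.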

Additional observations from a re-analysis of the deposited data

Results flagged for a closer look

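The effect of both siRNAs together differed from the sum of the single effects for 2 of the genes, by a test of that difference with mouse as a block in edgeR. For Spp1 the interaction was 0.88 ± 0.18 log2 units (adjusted p = 0.03), where the fold changes against siCon were -0.43 for siHnf4a, -1.21 for siCebpa and -0.76 for both siRNAs, so that the double knockdown was 0.88 above their sum. Without the block it was 0.91 ± 1.21 (adjusted p = 0.86). For Sox4 the interaction was 0.50 ± 0.11 (adjusted p = 0.0352), with -1.82, -0.33 and -1.64 in the same order, and without the block 0.49 ± 0.25 (adjusted p = 0.565). DESeq2, which had no block, called neither. Cebpa itself was at 84.5 to 109 CPM in the double knockdown and at 26.1 to 33.7 CPM in siCebpa, and the part of that difference in either interaction was not tested.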

How the results depend on the processing

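Mouse as a replicate block moved the number of the 9 genes called from 3 to 5 for siHnf4a, 0 to 4 for siCebpa and 3 to 6 for both siRNAs (each against siCon), 2 to 6 in the double knockdown against siCebpa, 1 to 5 in siHnf4a against siCebpa and 0 to 2 in the interaction. It left 0 in the double knockdown against siHnf4a and changed no other call of these genes. DESeq2 called 2 in siCebpa, 4 in the double knockdown against siCebpa and 3 in siHnf4a against siCebpa. With only the groups compared, or with limma on log2(TPM + 1) or log2(TPM + 0.1), 1 was called in the double knockdown against siCebpa. With no filter 2 were called in siHnf4a against siCebpa and 3 in the double knockdown against siCebpa, in both with Krt18 added.

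Leaving out 1 library, or the libraries of 1 mouse, gave 0 to 3 called genes in each knockdown against siCon, 0 to 4 in the double knockdown against siCebpa and 0 to 5 in siHnf4a against siCebpa, and 0 in both other comparisons. The counts of 0 in the comparisons with 1 or more calls came from leaving out mouse 2, and the count of 3 in siCebpa and of 5 from leaving out mouse 1.

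Over all genes, the block gave 4533, 2542 and 4448 calls for siHnf4a, siCebpa and the double knockdown against siCon, where the model without it gave 2193, 704 and 2117. It gave 4121 against 1959 for the double knockdown against siCebpa, 4712 against 2442 for siHnf4a against siCebpa and 576 against 13 for the interaction. For siCebpa the count was 398 with no filter, 45 with only the groups compared, 1326 with DESeq2 and 441 and 440 on the TPM scales. On log2(TPM + 1) it split into 96 higher and 345 lower, against 444 and 260, and on this scale the median of all genes was -0.12 in siCebpa against siCon, 0.09 and 0.10 in the double knockdown and siHnf4a against siCebpa and 0.12 in the interaction, where in the main model each lay within 0.02 of 0. Without mouse 2 the counts for siHnf4a, siCebpa and the double knockdown against siCon were 75, 0 and 124 and without mouse 3 653, 11 and 698, and siCebpa had 117 without siCon replicate 2, 114 without siCon replicate 3 and 154 without siCebpa replicate 3. Only the groups compared gave 841 for the double knockdown against siCebpa and 1322 for siHnf4a against siCebpa. The interaction had 25 calls with no filter and 235 with DESeq2, and the double knockdown against siHnf4a had 0 to 4 in all alternatives. Of 1092 recomputed fold changes of the 9 tested genes, 77 had the other sign, none of them past the threshold in either fit. Depth limits Krt7 and Epcam, which had at most 13.0 and 40 counts in a library.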
